A study of Bos taurus with 90 samples.

Results

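The genes described here were those with their highest mean level in bovine liver during a grass phase, in both of the breeds sampled, and with close mean levels in the concentrate phases before and after it. They were chosen from the measured values themselves. Counts were scaled by the plain total of each library to CPM, which gives a gene's share of the counts in its library, and taken as log2(CPM + 0.5), and genes with a mean CPM of 5 or more over the 90 libraries were averaged by breed and diet. In each breed the score of a gene was its mean on grass minus the larger of its means in the concentrate phases, and the concentrate means had to differ by less than 0.4. Of the 24616 genes in the table, 8987 reached the CPM minimum, 5584 of these had close concentrate means in both breeds, 646 also had a score above 0 in both, and the 100 with the largest score in the breed where it was smaller were taken as members.

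The libraries came from liver biopsies of Charolais (CH) and Holstein-Friesian (HF) steers. All steers passed in the same order through a first high-concentrate phase (H1), a phase on fresh cut grass fed indoors (ZG) and a second high-concentrate phase (H2). The phases did not follow directly: grass silage was fed between H1 and ZG, and the steers grazed grass between ZG and H2. The concentrate diet was mainly rolled barley with soya bean meal and molasses beside a restricted amount of silage, and the grass was perennial ryegrass offered ad libitum. Within breed and phase the steers had been ranked by residual feed intake (RFI), the difference between the feed eaten and that predicted from weight and growth, and libraries were made from the most efficient (low RFI) and the least efficient (high RFI).

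In CH there were 9 low and 11 high RFI libraries on H1, 3 low and 3 high on ZG, and 9 low and 8 high on H2. For HF the numbers were 7 low and 9 high on H1, 10 low and 8 high on ZG, and 5 low and 8 high on H2. Library totals ranged from 9097695 to 63621304 gene counts. Since the phases followed one another, diet, age, season and the growing or finishing stage cannot be told apart. A single biopsy samples all the cells of the tissue, so that fewer cells of a type and less RNA per cell cannot be told apart either. Steer number 1797 appears on a CH library and on an HF library, and results that rest on them were also computed without them.

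The liver of a ruminant makes nearly all of the glucose the animal uses, from propionate and amino acids that come from the rumen and the gut. It also takes up ammonia and plant compounds absorbed from the diet, and clears them by urea synthesis, by oxidation and by conjugation. Purines from digested rumen microbes are broken down there as well, to uric acid and, in cattle, on to allantoin.

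The deposited table names genes by Ensembl identifier alone. A symbol could be assigned to 327 of the 24616 identifiers, from the study's lists of genes that differed between RFI groups, and to 3 of the 100 members. These were UOX, ERMP1 and UGT2B15, at ranks 17, 87 and 99 of the 100, and ENSBTAG00000016032, at rank 54, was in the same lists without a symbol. UOX is urate oxidase, the peroxisomal liver enzyme that turns uric acid towards allantoin. ERMP1 is a metallopeptidase of the endoplasmic reticulum. UGT2B15 belongs to the UDP-glucuronosyltransferases, which attach glucuronic acid to steroids, bile acids and foreign compounds so that they can be excreted. The other 96 members are described by their values.

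The scores that chose the members were modest in size. Over the 100 members the smaller of both scores ran from 0.15 to 0.56 with a median of 0.23, or from 1.11-fold to 1.48-fold with a median of 1.17-fold. In CH the median score was 0.37 and in HF it was 0.24, and 86 members had the larger score in CH. The median over all 8987 genes was -0.07 in CH and -0.29 in HF. Which breed had the larger difference depended on the scaling. With TMM, another scaling of library sizes described below, the median ZG minus H1 of the members was 0.51 in CH and 0.62 in HF. Their median ZG minus H2 was then 0.22 in CH and 0.37 in HF. The 20 highest members had smaller scores of 0.32 to 0.56, 4 members were above 0.5, and 39 were under 0.2. At the limit of the list the scores lay close together, at 0.155, 0.154 and 0.152 for the members at ranks 98 to 100 and at 0.151, 0.151 and 0.150 for the genes at ranks 101 to 103. Members covered a wide range of abundance, from a mean of 5.30 to 3832 CPM, with a median of 61.1 CPM against 20.2 CPM for all 8987 genes. There were 37 members over 100 CPM and 16 under 10 CPM.

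**Figure D1:**
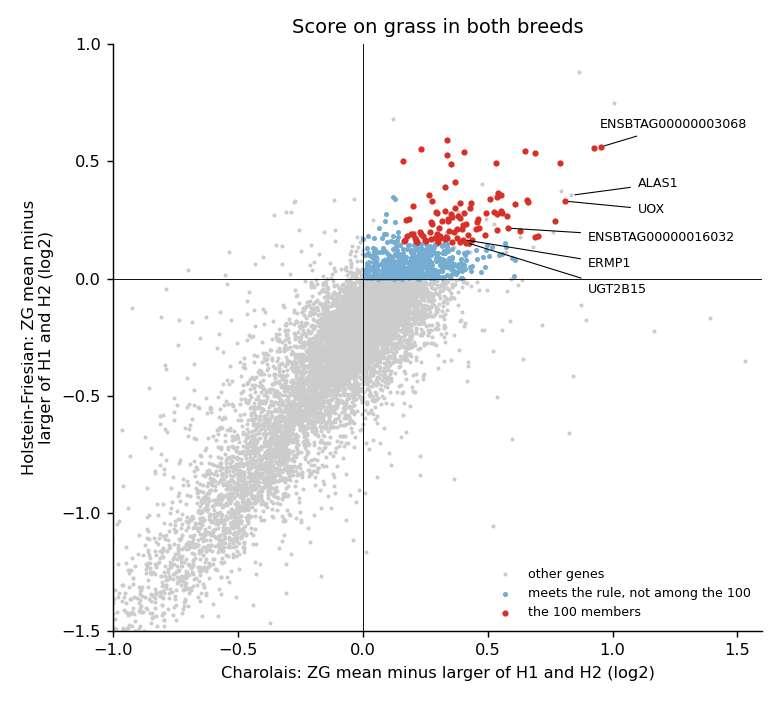
Score of each of the 8987 genes in Charolais (horizontal axis) and Holstein-Friesian (vertical axis), each the ZG mean minus the larger of the H1 and H2 means of log2(CPM + 0.5), with 167 genes outside the plotted range. The 100 members (red) take the upper right of the 646 genes that met the rule (blue), and ALAS1 lies among them in score but failed the limit on H1 and H2.

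UOX had the highest score of the members with a symbol. The 6 CH steers on ZG had UOX levels of 104, 107, 110, 126, 138 and 197 CPM. On H1 the 20 CH libraries ran from 21.5 to 146 CPM with a median of 70.7, and on H2 the 17 ran from 25.05 to 137 CPM with a median of 74.3. So the CH groups overlapped with plain totals: 1 ZG library lay above every concentrate library, and 6 concentrate libraries lay above the ZG median. In HF the 18 ZG libraries ran from 49.1 to 223 CPM with a median of 94.4, against medians of 75.1 on H1 (43.4 to 126 CPM) and 71.8 on H2 (43.6 to 109 CPM). Here 3 ZG libraries were above every concentrate library, and 6 with TMM. The means were 130 ± 35.1 CPM (SD, n = 6) on ZG against 79.0 ± 32.8 (n = 20) and 77.3 ± 31.5 (n = 17) in CH, and 102 ± 45.3 (n = 18) against 77.6 ± 21.2 (n = 16) and 71.0 ± 23.4 (n = 13) in HF.

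Of the 3, ERMP1 had the most CH libraries on ZG above every concentrate library. Its 6 CH levels on ZG were 59.3, 60.9, 87.2, 89.3, 104 and 111 CPM, and 4 of them were above the highest concentrate library. The CH concentrate libraries ran from 45.1 to 86.2 CPM on H1 (median 62.3) and from 43.7 to 67.5 CPM on H2 (median 56.8), and none lay above the ZG median. The ZG libraries at 59.3 and 60.9 CPM lay below the H1 median. In HF the ZG libraries ran from 50.1 to 89.8 CPM with a median of 67.5, and the medians were 60.0 on H1 and 58.6 on H2. There 2 of the 18 ZG libraries lay above every concentrate library, and 7 with TMM.

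UGT2B15 was just inside the limit of the list. On ZG the CH steers had 110, 156, 161, 162, 170 and 234 CPM, against 80.4 to 170 CPM on H1 (median 122) and 83.0 to 163 CPM on H2 (median 120). The HF libraries ran from 55.7 to 249 CPM on ZG with a median of 152, from 91.4 to 183 on H1 with a median of 131, and from 74.9 to 192 on H2 with a median of 122. The ZG group of HF thus held both the lowest and the highest of the 47 HF libraries. The UGT2B genes are a family with similar sequences, so that reads may be lost or shared between them and the count may be uncertain. This was not tested.

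The 2 members with the largest scores had no symbol. ENSBTAG00000003068 had a score of 0.95 in CH and 0.56 in HF. Its CH levels on ZG were 761, 891, 898, 912, 968 and 992 CPM, against medians of 438 on H1 (180 to 742 CPM) and 550 on H2 (151 to 1042 CPM), and 1 concentrate library exceeded the ZG median. In HF its median was 797 CPM on ZG (299 to 1512), 491 on H1 (283 to 873) and 558 on H2 (157 to 1605), the highest HF library being on H2. ENSBTAG00000004305 had scores of 0.93 and 0.56 at a lower level, with 10.4, 15.9, 27.9, 38.0, 42.2 and 49.3 CPM in the CH steers on ZG and medians of 14.6 on H1 and 12.9 on H2. Its HF medians were 19.4 CPM on ZG, 12.7 on H1 and 10.5 on H2.

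**Figure D2:**
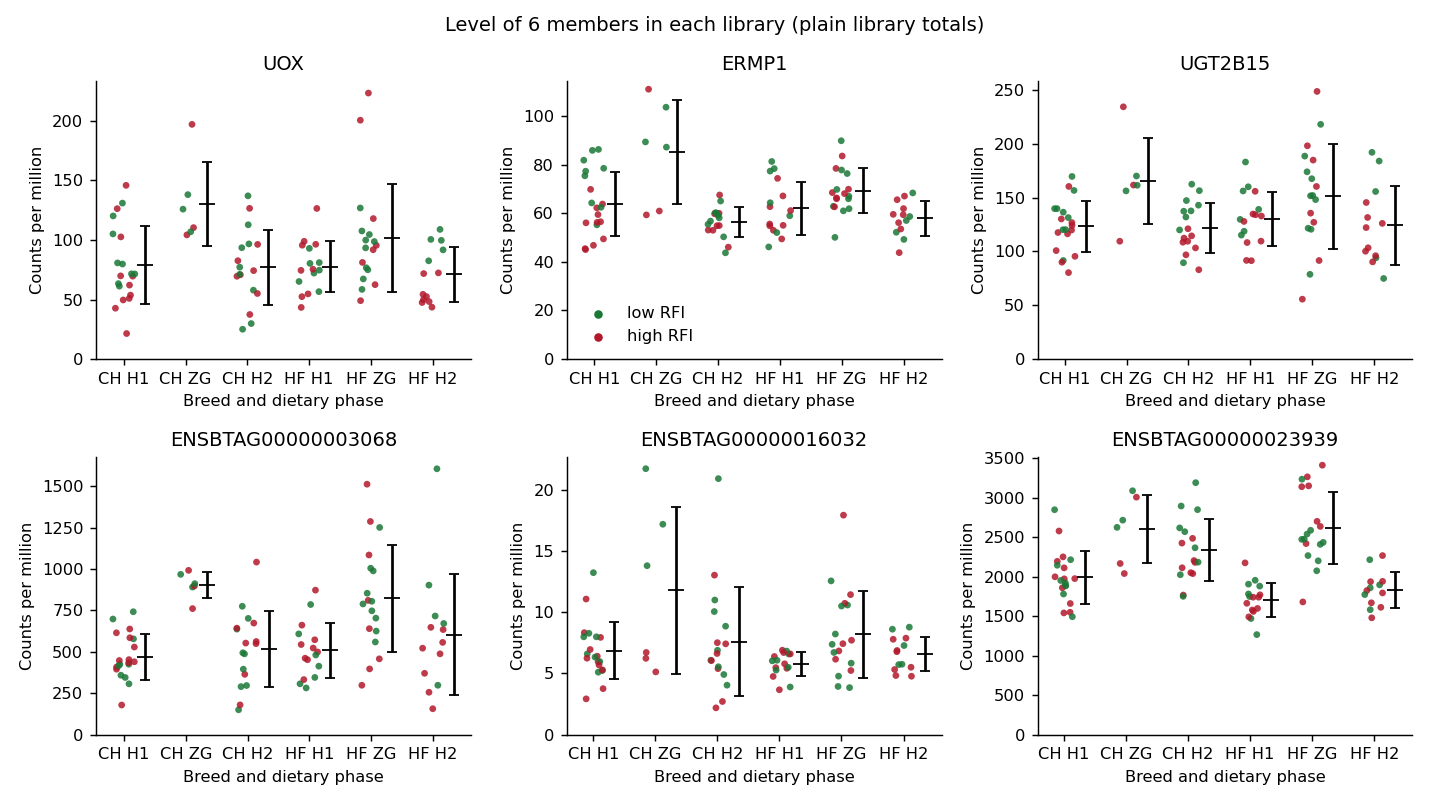
CPM of 6 members in each of the 90 libraries by breed and phase, scaled by plain library totals; each point is a library, coloured by RFI group, and the bar is the mean ± SD. ZG libraries were higher on average in both breeds, which the rule required, and the points of ZG and of the concentrate phases overlap in every panel.

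Taken over all members, no member had all its ZG libraries above all its concentrate libraries, in CH or in HF. Nor did any of the 8987 genes. In CH the ZG median was above every concentrate library for 11 members, beside 0.367% of the 8987 genes, and in HF for 2, beside 0.0334%. With TMM, another scaling of library sizes, the counts were 4 and 6, beside 0.111% and 0.167%. All 100 had a ZG median above the concentrate median in both breeds, under either scaling. In CH 64 members had every ZG library above the concentrate median, beside 7.34% of the 8987 genes, and in HF 5 did, beside 0.0668%. These counts were 57 and 19 with TMM, beside 5.62% and 1.05%. The rule chose members on this difference, so that nothing is read from the gap to the other genes.

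Averaged over the 100 members, and taken relative to the breed's own concentrate level, the CH libraries on ZG lay at 0.30, 0.45, 0.48, 0.49, 0.53 and 0.58 on the log2 scale. The CH libraries on H1 ran from -0.40 to 0.28 and those on H2 from -0.62 to 0.27. So with plain totals the 6 ZG libraries of CH did not overlap with the 37 concentrate libraries in this average, although they did gene by gene. The members were chosen for high ZG means in these same libraries, so that this gap supports nothing further. With TMM 1 of the 6 lay above every concentrate library. In HF the ZG libraries ran from -0.004 to 0.63 with a median of 0.32, the H1 libraries from -0.16 to 0.16 and the H2 libraries from -0.25 to 0.30. Of the 18 HF libraries on ZG, 10 lay above every concentrate library, and 9 with TMM. The lowest CH library on H2 was that of steer 454, and 97 of the 100 members were chosen again without it.

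**Figure D3:**
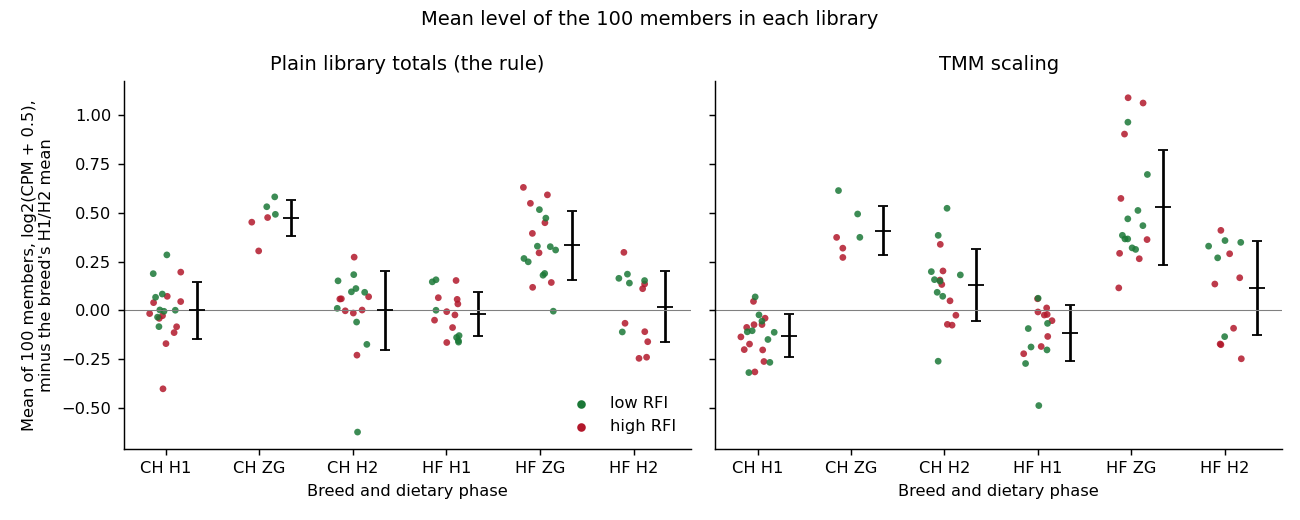
Mean of the 100 members in each library, as log2(CPM + 0.5) minus the mean of the breed's H1 and H2 means, with plain library totals (left) and with TMM scaling (right); points are libraries coloured by RFI group and bars are the mean ± SD. With plain totals the 6 CH libraries on ZG lie at 0.30 to 0.58, above all CH concentrate libraries, and with TMM 3 CH concentrate libraries reach or pass the lowest of them.

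How flat the members were between H1 and H2 depended on how the libraries were scaled. With plain totals the median of all 8987 genes itself differed between phases, by -0.02 for ZG minus H1 and 0.19 for ZG minus H2 in CH, and by -0.22 and -0.11 in HF. The 10 genes with the most reads took a median of 26.2% of counts on H1, 25.8% on ZG and 29.6% on H2 in CH, and 26.2%, 28.9% and 29.0% in HF. The members had median differences of 0.45 and 0.42 in CH and of 0.33 and 0.27 in HF on this scale. TMM, the trimmed mean of M-values, which sets library sizes so that most genes have the same level, brought the all-gene medians to between -0.01 and 0.06. The medians of the members then were 0.51 (ZG minus H1) and 0.22 (ZG minus H2) in CH, and 0.62 and 0.37 in HF.

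On the TMM scale H2 was also above H1, with a median difference over the members of 0.26 in CH and 0.23 in HF against 0.09 for all genes in either breed. With plain totals the same medians were 0.003 and 0.03. The 3 phase means stood in the order H1, H2, ZG, from low to high, for 90 members in CH and 91 in HF with TMM, against 51 and 61 with plain totals. Both scores stayed above 0 for 98 of the 100 members with TMM, but only 77 kept the limit on H1 and H2 and 47 stayed among the 100 highest. UOX, ERMP1, UGT2B15 and ENSBTAG00000016032 were among these 47. UOX then had scores of 0.65 in CH and 0.58 in HF, ERMP1 of 0.36 and 0.35, and UGT2B15 of 0.23 and 0.35. Taking the 10 genes with the most reads out of the library totals lay between both scalings. It gave all-gene medians for ZG minus H1 and ZG minus H2 of -0.01 and 0.12 in CH and of -0.15 and -0.09 in HF. Of the members, 92 then kept the limit on H1 and H2 and 80 were chosen again, and the median of H2 minus H1 was 0.08 in CH and 0.09 in HF.

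**Figure D4:**
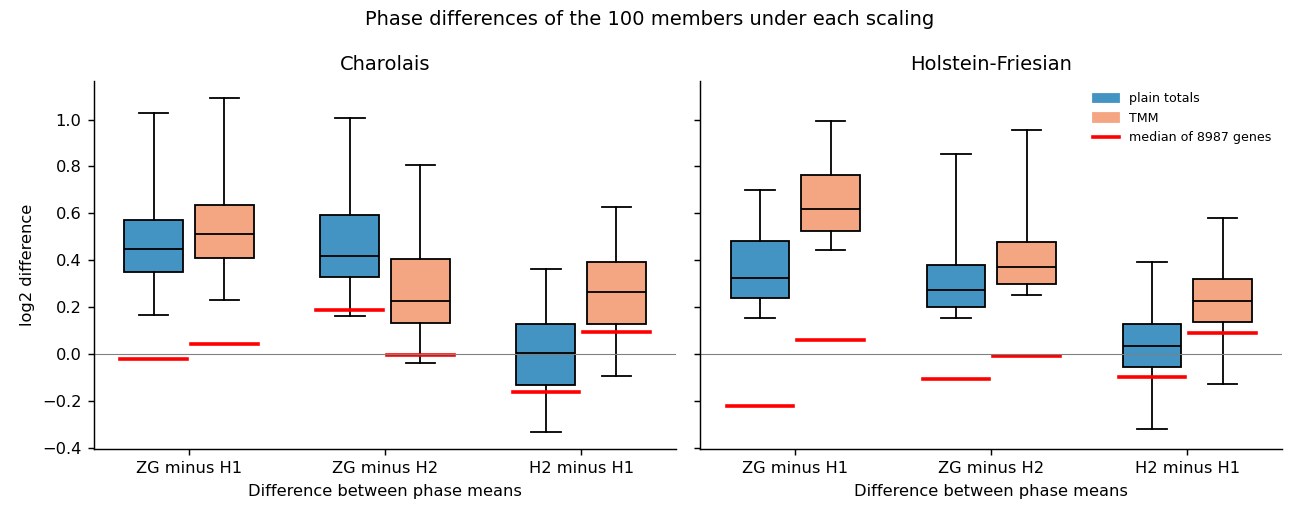
Differences between phase means of log2(CPM + 0.5) for the 100 members in each breed with plain library totals (blue) and TMM scaling (orange); boxes are quartiles, whiskers reach the lowest and highest member, and red lines are the median of all 8987 genes. The H2 minus H1 boxes are centred at 0.003 and 0.03 with plain totals and at 0.26 and 0.23 with TMM.

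Because the rule used these diet differences, their tests describe the members and support nothing further. In an edgeR quasi-likelihood fit over all genes with TMM scaling, 76 members passed a Benjamini-Hochberg adjusted p of 0.1 as higher on ZG than on H1 in CH, beside 12.3% of all genes tested, and 8 as higher on ZG than on H2, beside 2.49%. With limma-voom the latter count was 10 beside 2.6% of all genes, or 21 beside 4.39% where libraries of the same steer formed a replicate block. In HF all 100 passed against H1, beside 30.1% of all genes, and 42 against H2, beside 2.25%. No member passed in the opposite direction in any of the 4 contrasts. Leaving out CH steer 788 took the CH count against H1 from 76 to 40, and the share of all genes from 12.3% to 2.79%. Against H2 the CH count was 3 without steer 1816 (beside 0.894% of all genes), 4 without steer 1831 (0.855%) and 4 without steer 437 (0.583%).

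By the number in the sample titles, some steers gave a library on ZG and another on a concentrate phase of the same breed. This gave 10 pairs from 8 steers. The RFI group differed within the pair for CH steers 1816 (H1) and 307 (H2) and for HF steers 2065 (H1) and 5632 (H2). In all 4 CH pairs most members were higher on ZG, from 90 to 96 of the 100, with median differences of 0.32 to 0.56 on the log2 scale with plain totals. In the 6 HF pairs from 51 to 95 members were higher on ZG. The all-gene medians of the same pairs ran from -0.07 to 0.09 in CH and from -0.35 to 0.31 in HF. HF steers 5612 and 2065 were lowest, with 51 and 53 members and median differences of 0.03 each, where HF steer 2069 had 95 members and 0.59. With TMM the CH pairs gave 84 to 94 members higher on ZG and the HF pairs 54 to 100, and the order within HF changed. Steer 2065 then had 85 members and a median of 0.32, steer 1639 went from 78 members (0.41) to 54 (0.05), and steer 5612 had 56 members (0.08). These libraries were among those that chose the members. CH steer 307 and HF steer 5632 each entered with H1 and with H2 against the same ZG library, so that the pairs are not all separate observations. There were 15 members higher on ZG in all 10 pairs. The share of all genes higher on ZG is not given beside these counts, so that nothing is read from them. ENSBTAG00000003068 was higher in 10 of 10 pairs, UOX and UGT2B15 in 9 and ERMP1 in 8. UOX was 57.9 CPM on H2 and 197 CPM on ZG in CH steer 307, and 74.5 CPM on H1 and 58.5 CPM on ZG in HF steer 2065.

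The RFI comparison was the question the study set, and the rule did not use it. No member passed the adjusted p of 0.1 between low and high RFI in edgeR's quasi-likelihood test in any breed and phase, nor on ZG with both breeds in 1 fit. Over all genes tested the share called was 0.0155% for CH on H1, which was 2 genes, and 0% in the other 6 fits. At an unadjusted p under 0.05 there were 10 members in CH on ZG beside 13.5% of all genes, 8 on H1 beside 11.7%, and 9 on H2 beside 2.86%. For HF there was 1 on ZG beside 2.09%, 9 on H1 beside 6.63% and 14 on H2 beside 3.47%, and with both breeds on ZG there were 0 beside 1.94%. The DESeq2 Wald test called 1 member in CH on H1 beside 0.862% of all genes, 1 on ZG beside 0.899% and 1 on H2 beside 0.022%. In HF it called 1 member on H2 beside 0.0278%, 0 on ZG beside 0.0109% and 0 on H1 beside 0.14%, and with both breeds on ZG it called 0 beside 0.00536%. In CH on H1 and ZG 1 of 100 was thus near the share over all genes.

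In CH on ZG 79 members had a positive log2 fold change of low over high RFI, beside 52.9% of all genes tested. The median of the members was 0.18 against 0.04 for all genes tested. In HF on ZG only 17 members had a positive value, beside 49.5% of all genes tested, with a median of -0.13 against -0.002. There were 69 members with a positive value in CH and a negative one in HF, and 7 with the reverse. The difference between the breeds in the RFI effect on ZG, fitted as an interaction after these directions had been seen, passed the adjusted p of 0.1 for no member and for 0% of all genes. At an unadjusted p under 0.05 it gave 5 members, beside 5.71% of all genes. In the average of the members with plain totals, the 3 low RFI libraries of CH on ZG lay at 0.49 to 0.58 and the 3 high RFI libraries at 0.30 to 0.48. For HF the ranges were -0.004 to 0.52 and 0.12 to 0.63. With TMM the CH ranges nearly touched, at 0.374 to 0.614 for low and 0.271 to 0.374 for high RFI. Those of HF were 0.31 to 0.96 and 0.12 to 1.09. On concentrates 44 members had a positive value on H1 and 76 on H2 in CH, beside 51.3% and 50.6% of all genes tested. In HF there were 32 and 71, beside 52.3% and 49.4%. The medians of the members were -0.02 on H1 and 0.13 on H2 in CH, and -0.11 on H1 and 0.14 on H2 in HF. Members are not separate observations of RFI, since the same steers gave the values of all of them.

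**Figure D5:**
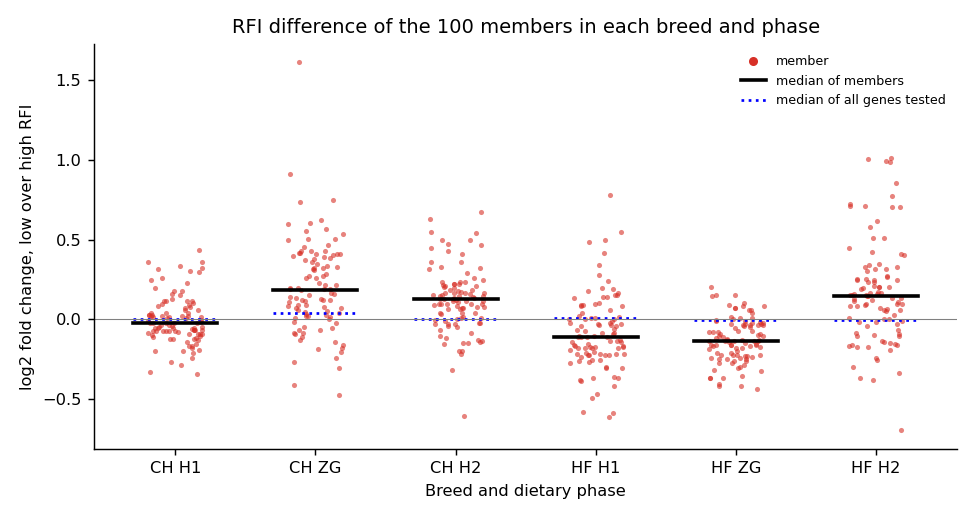
The log2 fold change of low over high RFI for each of the 100 members (red) in each breed and phase, from the edgeR fits; black lines are the median of the members and dotted blue lines that of all genes tested. The median of the members was 0.18 in CH and -0.13 in HF on ZG, and no member passed the adjusted p of 0.1.

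The 4 members in the study's own lists were put there for an RFI difference in these same libraries, so that their values are no independent evidence. ENSBTAG00000016032 was the member with the largest difference in CH on ZG. Its low RFI libraries had 13.8, 17.2 and 21.7 CPM and its high RFI libraries 5.13, 6.23 and 6.71 CPM, without overlap. With 3 against 3 libraries a gene can separate by chance, and the share of all genes that do so is not given here. The log2 fold change was 1.61 (SE 0.21), with an adjusted p of 0.282 in edgeR and 2.97e-07 in DESeq2. The CH medians on concentrates were 6.37 CPM on H1 and 6.63 CPM on H2, close to the 3 high RFI libraries on ZG, so that the higher ZG mean in CH lay with the 3 low RFI steers. In HF on ZG the medians were 7.05 CPM in low RFI and 7.57 CPM in high RFI.

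UOX was higher in low RFI in HF on H2, with 82.5, 91.7, 99.7, 101 and 109 CPM in the 5 low RFI libraries against 43.6 to 72.4 CPM (median 51.2) in the 8 high RFI libraries. These groups did not overlap, but the study had listed UOX for this difference, and the share of all genes without overlap is not given here. Its log2 fold change was 0.85 (SE 0.16), with an adjusted p of 0.852 in edgeR and 0.0276 in DESeq2. On ZG, where UOX was higher, the value was -0.31 (SE 0.26) in HF and -0.08 (SE 0.27) in CH.

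ERMP1 in CH on H1 ran from 55.2 to 86.2 CPM (median 77.3) in 9 low RFI libraries and from 45.1 to 69.8 CPM (median 56.2) in 11 high RFI libraries, and 6 of the low RFI libraries lay above all of the high. The log2 fold change was 0.32 (SE 0.09), with an adjusted p of 0.253 in edgeR and 0.0960 in DESeq2. UGT2B15 in CH on H2 ran from 89.5 to 163 CPM (median 138) in low RFI and from 83.0 to 121 CPM (median 109) in high RFI, with 7 of 9 low RFI libraries above all of the high. Its log2 fold change was 0.49 (SE 0.11), with an adjusted p of 0.871 in edgeR and 0.0226 in DESeq2.

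Between breeds, few members differed. The HF steers were older on average than the CH steers at the start of H1, so that breed and age cannot be told apart in these tests. On H1 edgeR called 3 members at the adjusted p of 0.1, beside 4.26% of all genes tested, and on H2 it called 1 member beside 0.59%. On ZG no member passed, beside 0.0152% of all genes, and at an unadjusted p under 0.05 there were 3 members beside 2.82%. At that unadjusted p there were 13 members on H1 beside 14.7% and 9 on H2 beside 7.01%. DESeq2 called 4 members on H1 beside 4.03% of all genes, 1 on H2 beside 0.844% and 0 on ZG beside 0.075%, all near the share over all genes. None of the called members had a symbol, and they were named here after their values were seen.

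ENSBTAG00000008792 was lower in CH on H1, at 3.04 to 8.47 CPM (median 5.05) in 20 CH libraries against 5.70 to 37.5 CPM (median 7.94) in 16 HF libraries. Its log2 fold change of CH over HF was -0.93 (SE 0.18, adjusted p = 0.00287 in edgeR), and -0.75 (adjusted p = 0.00501) without the HF library at 37.5 CPM. ENSBTAG00000006937 was higher in CH on H1, with medians of 365 and 282 CPM, a difference of 0.38 on the log2 scale (SE 0.10, adjusted p = 0.0223 in edgeR).

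ENSBTAG00000023939, among the most abundant members, was called on both concentrate phases. On H1 it ran from 1493 to 2846 CPM (median 1962) in CH and from 1267 to 2174 CPM (median 1740) in HF, a difference of 0.27 on the log2 scale (SE 0.09, adjusted p = 0.0997 in edgeR). On H2 the medians were 2203 and 1824 CPM and the log2 fold change 0.43 (SE 0.11, adjusted p = 0.0781). The adjusted p on H1 was 0.141 without the library of steer 1797 and 0.176 without that of HF steer 5632. On H2 the value was 0.158, 0.127, 0.139 and 0.159 without the libraries of HF steers 1657, 1797, 2071 and 5612 in turn, so that the call rested on each of these 4. On ZG the log2 difference was -0.17 (SE 0.16, adjusted p = 0.999), with medians of 2669 CPM in CH and 2506 CPM in HF. With plain totals 14 of its 18 HF libraries on ZG lay above every concentrate library and no concentrate library was above the ZG median, and with TMM these counts were 9 and 1.

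Pairs of members had a higher median correlation within groups than pairs of all genes, by more with TMM than with plain totals. With TMM scaling, and after taking away the mean of each breed, diet and RFI group, the median correlation between pairs of members over the 90 libraries was 0.24, against 0.004 between pairs of all 8987 genes. Over the 18 HF libraries on ZG it was 0.50 against 0.01. With plain totals the medians were 0.15 against 0.11, and 0.24 against 0.10 in HF on ZG. These points share library depth and the scaling. The members were also chosen in these same libraries and had a higher median abundance than all genes. The values are given as a description, and nothing is read from the gap to all genes. In HF on ZG, UGT2B15 had a correlation of 0.81 with the mean of the other members, ERMP1 of 0.70 and UOX of 0.52, and ENSBTAG00000004305 of 0.17.

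Pathways could be followed only in part. Of the 478 genes in 27 lists of pathways, cell types and handling, 37 had a symbol here, and at most 25% of any list did, so that no list was summarised and neither the liver label nor the share of other cell types was checked by marker genes. None of these 37 genes was a member. Beside UGT2B15, 4 of 40 genes of xenobiotic metabolism had a symbol: CYP3A5, a cytochrome P450, the glutathione transferases GSTA4 and GSTM1, and the epoxide hydrolase EPHX1. All of them were higher on ZG than on H1 in HF in edgeR's test, by 0.80 on the log2 scale (SE 0.13, adjusted p = 1.04e-05) for CYP3A5, 0.54 (SE 0.22, adjusted p = 0.0348) for GSTA4 and 0.52 (SE 0.10, adjusted p = 8.5e-05) for EPHX1, beside the 30.1% of all genes given above. GSTM1 stands for 2 identifiers, with 0.61 and 1.03. Against H2 none of them passed in HF or in CH, where the values ran from -0.44 to 0.01, and against H1 in CH the second GSTM1 identifier alone passed, at 0.82 (SE 0.22, adjusted p = 0.0145).

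ALAS1, the rate-limiting enzyme of haem synthesis, was not a member although its scores were 0.83 in CH and 0.36 in HF. Its mean on H2 was 0.65 above that on H1 in HF, over the limit of 0.4. EPHX1 met the rule at rank 317 of 646 with scores of 0.07 in CH and 0.06 in HF.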

How the data were processed

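Libraries were single-end Illumina mRNA libraries of liver biopsies. The authors mapped reads to UMD3.1 with STAR (version 2.5.3a per the labels) and deposited raw counts per Ensembl gene for 90 libraries, with no normalization. Groups came from the labels. The members and gene lists were chosen with earlier results of these data known. Members were selected as described above with Python 3.11.15, numpy 2.4.6 and pandas 2.3.3. All tests ran across all genes on the counts with edgeR 4.0.16 (filterByExpr, TMM, robust quasi-likelihood F-test, Benjamini-Hochberg, adjusted p under 0.1) in R 4.3.3: low over high RFI within breed and phase, and with breed as a term on ZG; CH over HF within phase with RFI as a term; and ZG over H1 or H2 within breed with RFI as a term. DESeq2 1.42.0 and limma 3.58.1 (voom) were alternatives, and the fits were tested on simulated data. The genes named were those with a symbol or an entry in the study's lists, the 2 highest scores, members called in a test and, of the gene lists, those with a symbol.

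The number in the sample titles was taken to mark libraries of the same animal within a breed, which the labels do not state. Over 18 pairs of libraries of 14 steers, the correlation of their deviations from the group means had a median of 0.26 (-0.59 to 0.58), and 14 were over 0.1. Library totals of 9097695 to 63621304 counts left every member tested in each comparison. With 3 CH steers in each RFI group on ZG, and 5 low RFI HF steers on H2, single steers weigh heavily. Gene symbols came from the study's gene lists alone, since none of the identifiers matched the RefSeq table; promoter sequences were not used here.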

Additional observations from a re-analysis of the deposited data

Results flagged for a closer look

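In 15 groups of 4 to 10 libraries, 1 held a library far from the others, where chance gives about 1 group in 20. This was UOX in CH on ZG, where the library of steer 307, at 197 CPM, stood above the next by 0.636 of the range of the 6. The other 5 steers lay at 104 to 138 CPM. No cause was tested.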

How the results depend on the processing

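Of the 100 members, 47 were chosen again with TMM scaling and 47 with DESeq2 size factors, 64 with medians in place of means, and from 80 to 97 under the other settings tried. Leaving out a CH ZG or HF H2 low steer kept 89 to 99. DESeq2's Wald test called 1 member for RFI in CH on H1, ZG and H2 and in HF on H2, where edgeR called 0, beside 160, 158, 4 and 5 calls over all genes. UOX in HF on H2, ERMP1 in CH on H1, UGT2B15 in CH on H2 and ENSBTAG00000016032 in CH on ZG were these 4. Between breeds on H2 the 1 call was lost (0) at an adjusted p of 0.05 and without the libraries numbered 1797, and leaving out an HF H2 low steer gave 0 to 1.

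For diet, leaving out a CH ZG steer gave 40 to 74 members higher on ZG than on H1 in CH, and 3 to 10 against H2. Against H2 in CH there were 4 at an adjusted p of 0.05, 5 with no filter on low counts and 21 with the steer as replicate block in limma-voom, and in HF against H2 26 at an adjusted p of 0.05. The replicate block moved no other count of members by over 1.5 times. The cause of these shifts was not tested.

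Diet cannot be told apart from age and season, and CH on ZG rests on 6 steers. The alternatives with size factors, with the 10 most abundant genes out of the totals and without single libraries of steers 454 and 5632 were chosen after seeing the data.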
